A study of Homo sapiens with 8 samples.

Results

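FABP4, PDK4, PLIN4, PCK1, ANGPTL4, ECH1, CPT2 and ACADVL are 8 genes of lipid and glucose metabolism. They were followed across every library of an RNA sequencing series on Calu-6, an established human line labelled as non-small cell lung cancer with a WT genotype. The 8 genes were taken by symbol from the deposited expression table, in which 14535 genes had a readable symbol. All 8 were found and passed the filter on low values. The genes were chosen by measured values: each lay lower with KI696 than with DMSO, and FABP4 lay higher at the later time in DMSO. Those differences are therefore given as a description, with no test. The 4 groups, each of 2 libraries, were cells exposed to 1 µM KI696 for 24 h or for 48 h and cells given the vehicle DMSO for 24 h or for 48 h. All cells shared the same line, medium with serum and 6-well format, and nothing in the labels tells whether 2 libraries of a group were grown separately, so p-values measure the spread between these libraries, which may be technical. KI696 keeps KEAP1, which marks NRF2 for degradation, from binding this transcription factor. The libraries of a group are named A and B after the order of their columns.

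Peroxisome proliferator-activated receptors (PPARs) are nuclear receptors that bind fatty acids and their derivatives, pair with retinoid X receptors (RXRs), and bind DNA at repeats of the hexamer AGGTCA. PPARG drives adipocyte differentiation and lipid storage, PPARA drives fatty acid oxidation and ketogenesis in liver, and PPARD drives fatty acid oxidation in muscle and many other tissues. FABP4, PLIN4, PCK1, ANGPTL4 and PDK4 are well known targets of this family, and CPT2, ACADVL and ECH1 act in the mitochondrial oxidation of fatty acids. NRF2 is best known for antioxidant and detoxification genes, which it reaches through the antioxidant response element.

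Promoter sequence, which shows what stands directly upstream of genes that moved together, was available from RefSeq for PDK4, ANGPTL4, PLIN4, CPT2 and ACADVL, the last with a pair of start sites, in build GRCh38.p14. In the windows from 250 bases before to 50 bases after these 6 start sites, 3 motifs were searched on both strands. The hexamer AGGTCA was in 0 of the 6 windows, against 13.8% of 35116 promoters of all genes. Its direct repeat with 1 base between the copies, the form that a PPAR and RXR pair binds, was in 0 of the 6, against 0.0228% of all promoters. The antioxidant response element core TGACNNNGC was in 1 of the 6, against 13.3% of all. The 250 bases upstream of the start site of PDK4 (chr7:95596517-95596766, minus strand) and of ANGPTL4 (chr19:8363905-8364154, plus strand) are shown as examples with none of the 3 motifs, so no base is in capitals. The site of ACADVL (chr17:7219931-7219959, plus strand) is shown with the match, on the opposite strand, in capitals, which begins at base 4 counted from 1 at the start site.
PDK4: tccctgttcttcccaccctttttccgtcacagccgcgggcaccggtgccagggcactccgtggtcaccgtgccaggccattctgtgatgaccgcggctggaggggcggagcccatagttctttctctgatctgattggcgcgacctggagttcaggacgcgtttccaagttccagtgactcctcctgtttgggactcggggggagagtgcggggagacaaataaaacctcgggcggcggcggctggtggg
ANGPTL4: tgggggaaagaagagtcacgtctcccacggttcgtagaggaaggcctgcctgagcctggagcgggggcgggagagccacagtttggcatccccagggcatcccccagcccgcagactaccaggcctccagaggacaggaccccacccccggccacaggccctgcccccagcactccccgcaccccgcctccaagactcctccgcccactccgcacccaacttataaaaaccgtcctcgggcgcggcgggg
ACADVL: ggacgccagaGCTGGGTCAgagctcgagc
A match is a run of letters in these windows, and variants of the motifs and elements that lie farther away were not searched. The direct repeat was in only 8 of the 35116 promoters, so 0 of 6 windows could be foreseen. Counts in 6 windows are too few to set these genes apart from all promoters. FABP4, PCK1 and ECH1 had no promoter sequence at hand and were not searched.

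Treatment and libraries were checked before the lipid genes. The recovered reads came to 8184400 and 6994108 in libraries A and B with KI696 for 24 h, 8291235 and 7070534 with DMSO for 24 h, 7294443 and 10769583 with KI696 for 48 h, and 7152831 and 14219064 with DMSO for 48 h. NQO1, the NAD(P)H quinone dehydrogenase that is a standard NRF2 target, had 1824 and 1852 CPM (counts per 1000000 reads of effective library size) with KI696 and 521 and 486 CPM with DMSO at 24 h, and all 10 NRF2 targets on a check list passed the test as higher with KI696 at both times. KEAP1 itself rose with KI696 by 0.73 (SE 0.06, adjusted p = 1.3e-06) at 24 h and by 0.57 (SE 0.06, adjusted p = 6.3e-06) at 48 h. Markers of lung lineage and of epithelium also differed between libraries: 7 of 7 tested lung markers and 13 of 13 epithelial markers were lower with KI696 at 24 h, and 1 of 7 and 3 of 13 at 48 h. Summed over the 9 of 13 lung lineage markers in the table, they reached 61.2 to 63 CPM with KI696 and 156 to 171 CPM with DMSO at 24 h, and 64 to 101 CPM with KI696 and 117 to 132 CPM with DMSO at 48 h. ABCA3, the only lung marker called at 48 h, made up much of this sum. It had 58.7 and 58.6 CPM with KI696 and 81.9 and 85.8 CPM with DMSO at 24 h. At 48 h it had 54.5 and 62.2 CPM with KI696 and 108 and 113 CPM with DMSO, while the other 6 tested lung markers were not called. The 13 of 13 epithelial markers summed to 928 to 997 CPM with KI696 and 2144 to 2706 CPM with DMSO at 24 h, and to 1042 to 1462 CPM with KI696 and 1860 to 2013 CPM with DMSO at 48 h. KRT7, KRT8 and KRT18, the 3 called at 48 h, made up much of that sum. Library B stood apart from library A in both 48 h groups: NKX2-1, which defines the lung lineage, had 12.8 and 1.16 CPM in libraries A and B of KI696 and 12.1 and 2.49 CPM in those of DMSO. LAMP3 and SFTPB were at 0 in library A and SFTA2 and SFTPB in library B of KI696 at 24 h, SFTA2 and SFTPB were at 0 in library B of both 48 h groups, SFTPA2 in B of KI696 and SFTPA1 in B of DMSO. The part of these markers in the results below was not tested, and values without single libraries are given where they move a result. Because FABP4 and PLIN4 are also adipocyte genes, adipocyte markers were looked at: CEBPA, LIPE and CFD were the 3 of 10 in the table, the other 7 are not analysed here, and the sum was 18.7 to 19.6 CPM with KI696 and 26.3 to 28 CPM with DMSO at 24 h, and 23.6 to 26.8 CPM with KI696 and 41.7 to 41.9 CPM with DMSO at 48 h. Of 8 leukocyte markers 4 were in the table, and they summed to 37 to 39.2 CPM with KI696 and 47.5 to 48.1 CPM with DMSO at 24 h, and to 29.1 to 30.3 CPM with KI696 and 42.2 to 45.6 CPM with DMSO at 48 h. Fewer cells of a type and less RNA per cell cannot be told apart in bulk samples.

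FABP4 (ENSG00000170323, chromosome 8, 81478419 to 81483263, minus strand, in hg38 as are all gene positions here) encodes the adipocyte and macrophage fatty acid-binding protein, a small cytosolic carrier that delivers fatty acids to PPARG. At 24 h it had 94.8 and 95.1 CPM in KI696 libraries, against 490 and 432 CPM in DMSO libraries. At 48 h it had 383 and 290 CPM in KI696 libraries, against 1487 and 1676 CPM in DMSO libraries. No group overlapped another, and the order from high to low was DMSO at 48 h, DMSO at 24 h, KI696 at 48 h and KI696 at 24 h. The log2 difference between KI696 and DMSO was -2.27 (SE 0.11) at 24 h and -2.24 (SE 0.11) at 48 h, so that KI696 cells held 20.6% of the DMSO mean at 24 h and 21.3% at 48 h. The 48 h value was -2.44 without library A and -2.04 without library B of KI696 at 48 h. In DMSO the mean was 1581 ± 134 CPM at 48 h and 461 ± 40.7 CPM at 24 h (SD, n = 2), a ratio of 3.43.

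The rise of FABP4 with time was not confined to DMSO. Within KI696, a contrast that the choice did not use although it shares libraries with those that did, FABP4 was higher at 48 h than at 24 h by 1.81 on the log2 scale (SE 0.11, adjusted p = 3e-06), a ratio of 3.55 between the means. The corresponding difference in DMSO was 1.78 (SE 0.11). The KI696 effect at 48 h minus that at 24 h was 0.03, with a 95% interval from -0.29 to 0.35, and is given as a description. Per kilobase of exon, FABP4 had the highest level of the 8 genes in DMSO at 48 h, at 1680 CPM per kb, where ACADVL had 455 and ECH1 141. In KI696 at 24 h the level of FABP4 was 101 CPM per kb, below that of ACADVL at 273 and above that of ECH1 at 63.8.

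**Figure D1:**
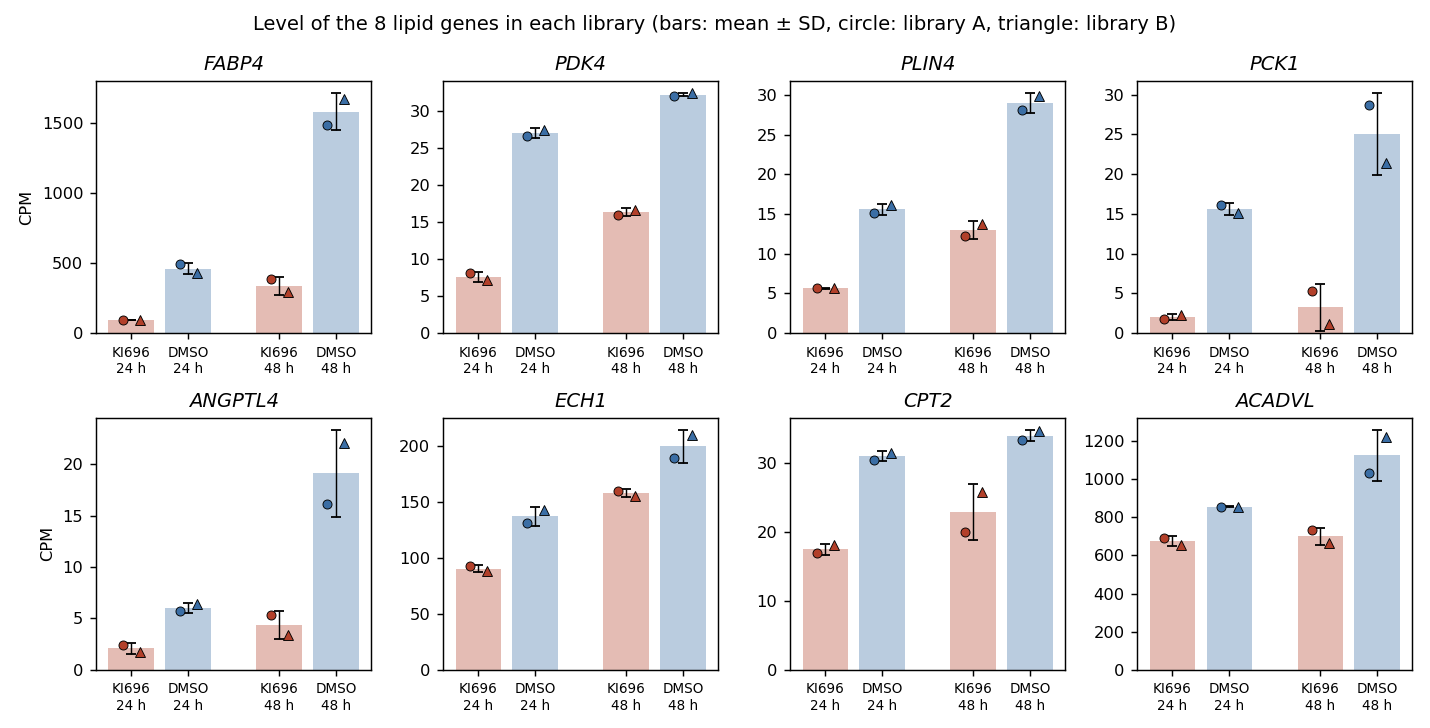
Levels of FABP4, PDK4, PLIN4, PCK1, ANGPTL4, ECH1, CPT2 and ACADVL in CPM, from 0, in 4 groups of 2 libraries (circle A, triangle B, bar mean, error bar SD). In every panel both KI696 libraries lie below both DMSO libraries of the same time, and FABP4 in KI696 at 48 h (383 and 290 CPM) stays below FABP4 in DMSO at 24 h (490 and 432 CPM).

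FABP5 and FABP3 were the other fatty acid-binding proteins in the table. FABP5, the epidermal form, had 103 and 92.5 CPM with KI696 and 94.4 and 92.7 CPM with DMSO at 24 h, and 119 and 118 CPM with KI696 and 131 and 133 CPM with DMSO at 48 h. Its log2 differences of 0.06 (SE 0.07, adjusted p = 0.47) at 24 h and -0.15 (SE 0.07, adjusted p = 0.076) at 48 h did not pass the test. FABP3, the heart form, fell with KI696 by 1.45 (SE 0.32, adjusted p = 0.0025) at 24 h and by 1.85 (SE 0.32, adjusted p = 0.00037) at 48 h, and it stayed at or under 5.76 CPM. The call at 24 h was lost under quantile normalization (adjusted p = 0.073).

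PLIN4 (ENSG00000167676, chromosome 19, 4502180 to 4518465, minus strand) encodes perilipin 4, a coat protein of nascent lipid droplets, and shares 32 exon bases with HDGFL2 on the opposite strand. It had 5.63 and 5.7 CPM with KI696 against 15.1 and 16.1 CPM with DMSO at 24 h, and 12.2 and 13.8 CPM with KI696 against 28.1 and 29.9 CPM with DMSO at 48 h. The 4 groups did not overlap and stood in the same order as for FABP4. The log2 difference was -1.42 (SE 0.14) at 24 h and -1.15 (SE 0.14) at 48 h. With 5 CPM added before the log these values became -0.95 and -0.92. Relatives that were not chosen also fell: PLIN2, which covers droplets in most cells, fell with KI696 by 0.31 (SE 0.07, adjusted p = 0.0035) at 24 h and by 0.42 (SE 0.07, adjusted p = 0.00039) at 48 h, and PLIN3 fell by 0.91 (SE 0.08, adjusted p = 1.3e-06) and by 0.54 (SE 0.08, adjusted p = 5.9e-05). PLIN5, the coat protein of oxidative tissues, was at most 0.83 CPM and was not tested.

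ANGPTL4 (ENSG00000167772, chromosome 19, 8363289 to 8374373, plus strand) encodes a secreted protein that inhibits lipoprotein lipase. It had 2.45 and 1.71 CPM with KI696 against 5.7 and 6.37 CPM with DMSO at 24 h, and 5.33 and 3.39 CPM with KI696 against 16.1 and 22.1 CPM with DMSO at 48 h. The groups did not overlap, although the KI696 libraries of 24 h rested on 20 and 12 reads. The log2 difference was -1.45 (SE 0.27) at 24 h and -2.09 (SE 0.27) at 48 h, and it became -0.64 and -1.36 with 5 CPM added. ANGPTL2, a relative linked to inflammation, fell with KI696 by 1.04 (SE 0.23, adjusted p = 0.0021) and by 1.07 (SE 0.23, adjusted p = 0.0016) at the same times. LIPG, the endothelial lipase, fell by 0.79 (SE 0.06, adjusted p = 7.4e-07) at 24 h and by 1.16 (SE 0.06, adjusted p = 2.2e-08) at 48 h, where it had 171 and 158 CPM with KI696 against 362 and 375 CPM with DMSO. ANGPTL1, at most 3.16 CPM in any library, had log2 differences of 1.09 (SE 0.55) and 0.28 (SE 0.55) and did not pass the test.

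PDK4 (ENSG00000004799, chromosome 7, 95583499 to 95596491, minus strand) encodes a pyruvate dehydrogenase kinase that restrains glucose oxidation when fatty acids are the fuel. It had 8.08 and 7.13 CPM with KI696 against 26.6 and 27.5 CPM with DMSO at 24 h, and 16 and 16.7 CPM with KI696 against 32.1 and 32.4 CPM with DMSO at 48 h. The groups did not overlap, and the KI696 mean was 28.1% of the DMSO mean at 24 h and 50.6% at 48 h. The log2 difference was -1.80 (SE 0.12) at 24 h and -0.97 (SE 0.12) at 48 h. The other kinases of the complex went both ways. PDK2 fell with KI696 by 1.14 (SE 0.13, adjusted p = 1.4e-05) at 24 h and by 0.77 (SE 0.13, adjusted p = 0.00027) at 48 h. PDK3 fell by 0.46 (SE 0.11, adjusted p = 0.0031) at 24 h and by 0.35 (SE 0.11, adjusted p = 0.015) at 48 h, a call lost without library A of KI696 or A of DMSO at 48 h (adjusted p = 0.11 in each) and without a variance trend (0.062). PDK1, a hypoxia-responsive kinase, rose by 0.49 (SE 0.09, adjusted p = 0.0008) and by 0.36 (SE 0.09, adjusted p = 0.0054).

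PCK1 (ENSG00000124253, chromosome 20, 57561080 to 57568112, plus strand) encodes the cytosolic phosphoenolpyruvate carboxykinase of gluconeogenesis and glyceroneogenesis. It had 1.71 and 2.28 CPM with KI696 against 16.1 and 15.1 CPM with DMSO at 24 h, and 5.33 and 1.16 CPM with KI696 against 28.7 and 21.4 CPM with DMSO at 48 h. KI696 libraries lay below DMSO libraries at both times, while the KI696 groups of 24 h and 48 h overlapped. The KI696 mean was 12.8% of the DMSO mean at 24 h and 13% at 48 h, the lowest shares among the 8 genes. The log2 difference was -2.83 (SE 0.44) at 24 h and -3.16 (SE 0.44) at 48 h, where only 6 of 13213 tested genes had a lower value. These rested on 14 and 16 reads with KI696 at 24 h and on 38 and 12 reads at 48 h; the 48 h value was -4.15 without library A and -2.17 without library B of the KI696 group, and -1.90 with 5 CPM added. PCK2, the mitochondrial enzyme of the same reaction, had a log2 difference of 0.08 (SE 0.11, adjusted p = 0.55) at 24 h and rose with KI696 by 0.73 (SE 0.11, adjusted p = 9e-05) at 48 h.

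**Figure D2:**
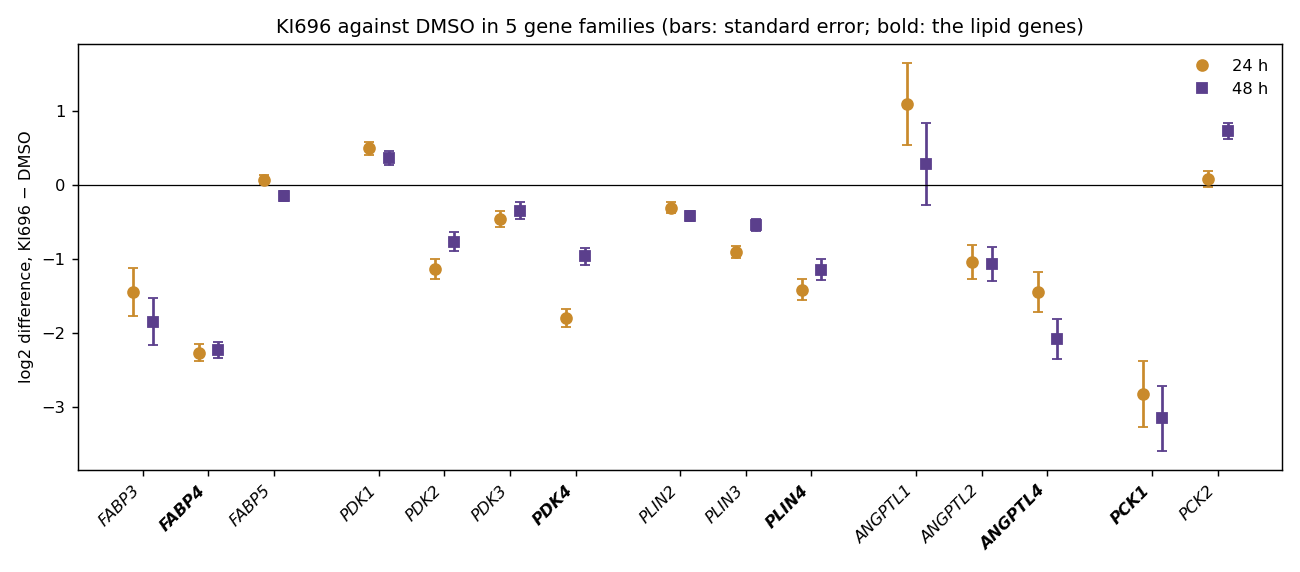
Log2 difference between KI696 and DMSO (error bars, standard error) at 24 h (circles) and 48 h (squares) for FABP, PDK, PLIN, ANGPTL and PCK genes, with the 5 genes of the set in bold. FABP4 lies at -2.27 and -2.24 while FABP5 lies at 0.06 and -0.15, and PCK1 lies at -2.83 and -3.16 while PCK2 lies at 0.08 and 0.73.

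The last 3 genes act in fatty acid oxidation. CPT2 (ENSG00000157184, chromosome 1, 53196429 to 53214197, plus strand) encodes carnitine palmitoyltransferase of the inner membrane and overlaps C1orf123 over 99 exon bases on the opposite strand. It had 16.9 and 18 CPM with KI696 against 30.4 and 31.4 CPM with DMSO at 24 h, and 20 and 25.7 CPM with KI696 against 33.3 and 34.5 CPM with DMSO at 48 h. Its log2 difference was -0.82 (SE 0.12) at 24 h and -0.58 (SE 0.12) at 48 h, without overlap of groups. ACADVL (ENSG00000072778, chromosome 17, 7217125 to 7225273, plus strand) encodes the very long-chain acyl-CoA dehydrogenase that opens the oxidation spiral, and overlaps DLG4 over 85 exon bases on the opposite strand. It had 693 and 657 CPM with KI696 against 854 and 857 CPM with DMSO at 24 h, and 732 and 668 CPM with KI696 against 1031 and 1221 CPM with DMSO at 48 h. Its log2 difference was -0.34 (SE 0.07) at 24 h and -0.68 (SE 0.07) at 48 h, and the KI696 groups of 24 h and 48 h overlapped.

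ECH1 (ENSG00000104823, chromosome 19, 38815422 to 38832005, minus strand) encodes an enoyl-CoA isomerase for unsaturated fatty acids in mitochondria and peroxisomes and shares 402 exon bases with AC008982.1 on its own strand, so the authors' counting could have split its reads. It had 92.3 and 87.8 CPM with KI696 against 131 and 143 CPM with DMSO at 24 h, and 160 and 155 CPM with KI696 against 189 and 210 CPM with DMSO at 48 h. No group overlapped another, but KI696 at 48 h lay above DMSO at 24 h, an order that differed from that of the other 7 genes. The log2 difference was -0.60 (SE 0.07) at 24 h and -0.34 (SE 0.07) at 48 h.

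All 8 genes lay lower in both KI696 libraries than in both DMSO libraries at each time, which the choice of the set fixes. Of all 13213 tested genes, 32.9% did so at both times. The median log2 difference of all tested genes was -0.12 at 24 h and -0.07 at 48 h, and -0.01 and -0.02 after scaling with TMM factors, and differences are to be read against these medians. The scaling also set the balance of all calls: 37.2% of called genes were higher at 24 h as deposited and 51.5%, 51% and 51.3% with TMM, median-ratio and quantile scaling. For KI696 at 48 h against 24 h the share was 69.9% as deposited and 57.4%, 56.9% and 56.2%, and for the difference between the effects 79.5% and 66.7%, 63.9% and 69.9%. The smallest difference among the 8 genes at 24 h, that of ACADVL, ranged from -0.47 to -0.24 over the alternatives run, and the smallest at 48 h, that of ECH1, from -0.42 to -0.26.

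Several of the 8 genes were higher at 48 h than at 24 h, within KI696 and within DMSO. Within KI696, 5 of 8 rose, where 8.38% of all tested genes did. Beside FABP4 these were ECH1 by 0.80 (SE 0.07, adjusted p = 7.5e-05), PLIN4 by 1.16 (SE 0.14, adjusted p = 0.00044), PDK4 by 1.08 (SE 0.12, adjusted p = 0.00031) and ANGPTL4 by 0.97 (SE 0.27, adjusted p = 0.033). CPT2 at 0.38 (SE 0.12, adjusted p = 0.065), PCK1 at 0.33 (SE 0.44, adjusted p = 0.67) and ACADVL at 0.05 (SE 0.07, adjusted p = 0.69) did not pass. Within DMSO, 4 of the 7 genes other than FABP4 rose, where 5.29% of all tested genes did. These were ANGPTL4 by 1.61 (SE 0.27, adjusted p = 0.0025), PLIN4 by 0.89 (SE 0.14, adjusted p = 0.0017), ECH1 by 0.54 (SE 0.07, adjusted p = 0.00055) and ACADVL by 0.39 (SE 0.07, adjusted p = 0.0053), while PDK4 at 0.25 (SE 0.12, adjusted p = 0.22), PCK1 at 0.66 (SE 0.44, adjusted p = 0.39) and CPT2 at 0.13 (SE 0.12, adjusted p = 0.54) did not pass. Both contrasts use libraries in which the genes had been chosen as lower with KI696. The count within KI696 includes FABP4, which was chosen for its rise in DMSO, and the count within DMSO leaves it out, so the counts are not alike.

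The call of ANGPTL4 within KI696 did not hold in 11 of the 19 alternatives, among them those without library A (adjusted p = 0.067) or B (0.24) of KI696 at 24 h, A (0.051) or B (0.053) of DMSO at 24 h, or A of KI696 at 48 h (0.21). The call of ACADVL within DMSO was lost without library A of DMSO at 24 h (adjusted p = 0.062), and with no variance trend the count within DMSO was 1 of 7. PCK1 within KI696 turned on its 48 h libraries, with -0.66 (adjusted p = 0.16) without A and 1.33 (adjusted p = 0.0038) without B. Within DMSO its value of 0.66 passed without B of KI696 at 48 h (adjusted p = 0.047) and when the DMSO libraries were fitted alone (0.031). CPT2 within KI696 passed without A of KI696 at 48 h, with 0.55 (adjusted p = 0.024).

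**Figure D3:**
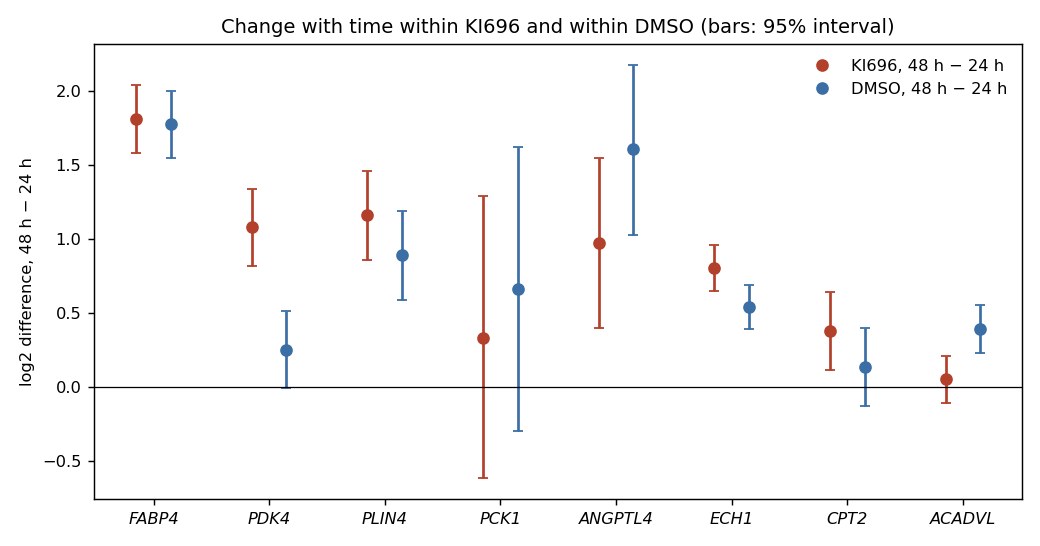
Log2 difference between 48 h and 24 h within KI696 and within DMSO (points) with 95% intervals for the 8 genes. The points of FABP4 lie at 1.81 in KI696 and 1.78 in DMSO, that of PDK4 lies at 1.08 in KI696 and 0.25 in DMSO, and that of ACADVL at 0.05 in KI696 and 0.39 in DMSO.

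Whether the KI696 effect itself differed between the times was tested for the 7 genes other than FABP4. This contrast is built from the KI696 effects by which the genes were chosen, so its p-values are not free of that choice. PDK4 passed, with an effect 0.83 higher (nearer to 0) at 48 h than at 24 h (SE 0.17, 95% interval 0.46 to 1.20, adjusted p = 0.046), where 0.848% of all tested genes passed in either direction. That call was lost in 14 of the 18 alternatives, including TMM scaling (adjusted p = 0.06) and leaving out A (0.15) or B (0.2) of KI696 at 24 h, A (0.19) or B (0.16) of DMSO at 24 h, A of KI696 at 48 h (0.058) or B of DMSO at 48 h (0.089). The differences of the other 6 genes did not pass, and their intervals ran from 0.05 to 0.48 for ECH1, from -0.56 to -0.11 for ACADVL, from -1.45 to 0.18 for ANGPTL4, from -0.15 to 0.69 for PLIN4, from -0.13 to 0.62 for CPT2 and from -1.68 to 1.03 for PCK1. ACADVL passed without A of DMSO at 48 h, with -0.46 (adjusted p = 0.011). Intervals are for single genes and are not adjusted for the number of genes.

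The 3 PPAR genes fell with KI696 at both times. PPARG had 167 and 171 CPM with KI696 and 215 and 215 CPM with DMSO at 24 h, and 215 and 228 CPM with KI696 and 252 and 298 CPM with DMSO at 48 h. It fell by 0.35 (SE 0.07, adjusted p = 0.0016) at 24 h and by 0.31 (SE 0.07, adjusted p = 0.0035) at 48 h. PPARA fell by 0.89 (SE 0.16, adjusted p = 0.00061) at 24 h and by 0.49 (SE 0.16, adjusted p = 0.023) at 48 h, and PPARD fell by 0.89 (SE 0.13, adjusted p = 8.7e-05) and by 0.51 (SE 0.13, adjusted p = 0.0048). RXRA, the main partner, had log2 differences of 0.14 (SE 0.08, adjusted p = 0.17) at 24 h and 0.25 (SE 0.08, adjusted p = 0.018) at 48 h. RXRB fell by 0.44 (SE 0.09, adjusted p = 0.0013) at 24 h and by 0.27 (SE 0.09, adjusted p = 0.024) at 48 h.

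The coactivators went in opposite directions. PPARGC1B, which promotes mitochondrial gene expression, rose with KI696 by 1.83 (SE 0.15, adjusted p = 1.4e-06) at 24 h, with 30.1 and 34.8 CPM with KI696 against 7.6 and 10.5 CPM with DMSO, and by 1.66 (SE 0.15, adjusted p = 1.9e-06) at 48 h. Its relative PPRC1 rose by 0.62 (SE 0.07, adjusted p = 1.6e-05) and by 0.39 (SE 0.07, adjusted p = 0.00056), while PPARGC1A fell by 0.48 (SE 0.13, adjusted p = 0.008) at 24 h and by 0.68 (SE 0.13, adjusted p = 0.00076) at 48 h. NRIP1, a corepressor, followed the library split: it had 0.367 and 0.998 CPM with KI696 and 18.2 and 11.5 CPM with DMSO at 24 h, but 11.2 and 1.55 CPM in A and B of KI696 and 10.6 and 1.85 CPM in A and B of DMSO at 48 h. Of the 19 tested genes on the list of receptors and coregulators, 9 fell and 2 rose at 24 h, and 8 fell and 3 rose at 48 h, where 30.5% and 26.4% of all tested genes fell and 18.1% and 22.4% rose. Without library A of KI696 at 24 h 5 fell at 24 h; at 48 h 5 fell without A of KI696, 4 without B of KI696, 5 without B of DMSO and 5 with TMM scaling. At 48 h the call of PPARA was lost without A (adjusted p = 0.086) or B (0.057) of KI696 or B of DMSO (0.12), that of PPARD without B of KI696 (0.068), that of RXRB without A of KI696 (0.1), B of DMSO (0.2) or under TMM scaling (0.079), and that of RXRA without B of KI696 (0.12) or A of DMSO (0.16). That of PPARGC1A at 24 h was lost without A of KI696 (0.095) or A of DMSO (0.083).

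**Figure D4:**
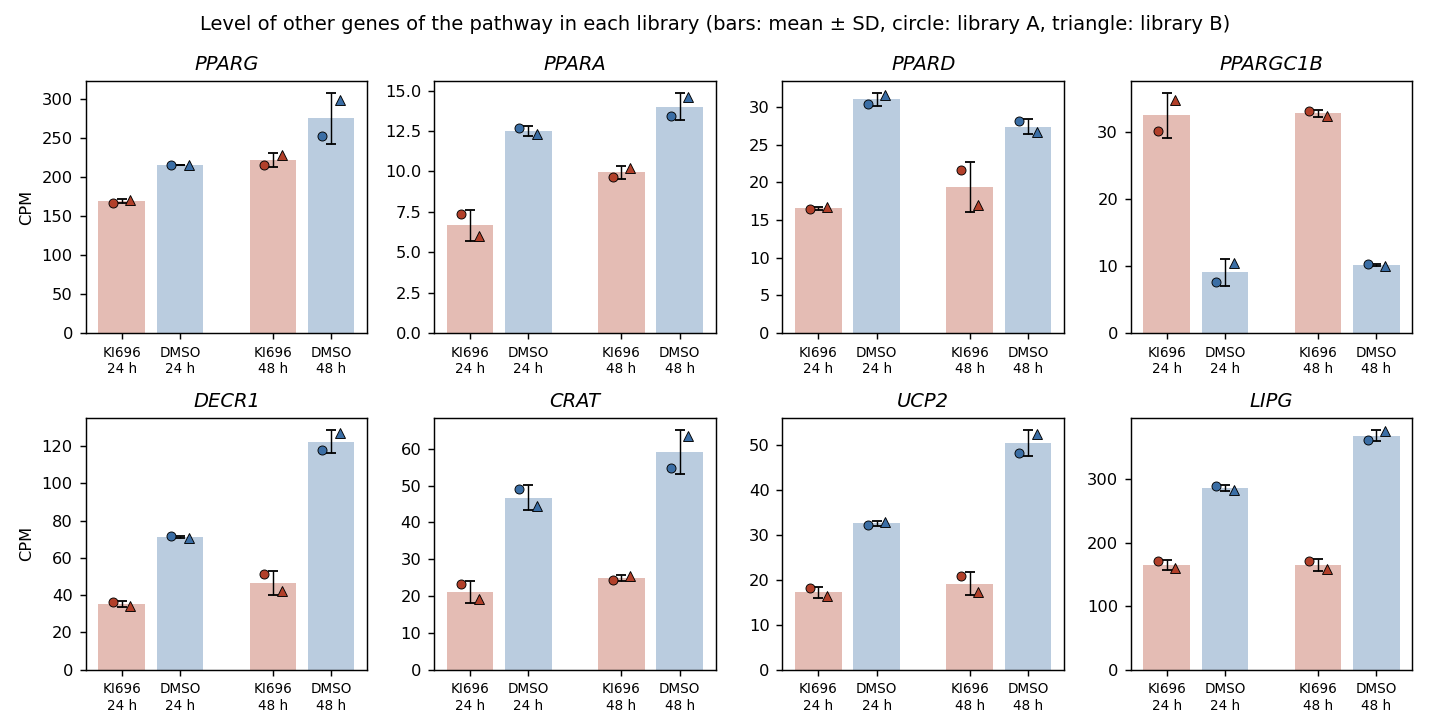
Levels in CPM, from 0, of 8 further genes of the pathway, selected for display after their values were seen, in 4 groups of 2 libraries (circle A, triangle B, bar mean, error bar SD). PPARGC1B lies higher with KI696 (30.1 and 34.8 against 7.6 and 10.5 CPM with DMSO at 24 h), whereas DECR1, CRAT, UCP2 and LIPG lie lower with KI696 at both times.

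Of the 15 tested genes on the list of other PPAR targets, 10 fell and 1 rose at 24 h, and 8 fell and 1 rose at 48 h, with a median log2 difference of -0.61 and -0.48. The shares that fell were 66.7% and 53.3%, beside 30.5% and 26.4% of all tested genes. UCP2, a mitochondrial uncoupling protein, fell with KI696 by 0.91 (SE 0.12, adjusted p = 3.9e-05) at 24 h and by 1.39 (SE 0.12, adjusted p = 8.2e-07) at 48 h. SLC25A42, the mitochondrial carrier of coenzyme A, fell by 1.28 (SE 0.16, adjusted p = 4e-05) and by 0.74 (SE 0.16, adjusted p = 0.0022). CREB3L3, a membrane-bound transcription factor of liver lipid metabolism, fell by 0.96 (SE 0.24, adjusted p = 0.0049), a call lost under quantile normalization (adjusted p = 0.18), and by 1.38 (SE 0.24, adjusted p = 0.00034). TMEM38B, a cation channel of the endoplasmic reticulum, rose by 0.60 (SE 0.09, adjusted p = 0.00019) and by 0.80 (SE 0.09, adjusted p = 1.3e-05). HILPDA, a droplet protein that inhibits the lipase ATGL, is a PPAR target counted on the droplet list and not on this one. It had 0.19 (SE 0.15, adjusted p = 0.33) at 24 h and rose by 0.49 (SE 0.15, adjusted p = 0.017) at 48 h. That call was lost without B of KI696 (log2 difference 0.44) or B of DMSO (0.27) at 48 h. CPT1A, the outer-membrane carnitine palmitoyltransferase and a widely used PPARA marker, fell by 0.31 (SE 0.07, adjusted p = 0.0031) at 24 h, a call lost with TMM scaling (adjusted p = 0.051), and had a value of -0.13 (SE 0.07, adjusted p = 0.15) at 48 h.

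Genes of ketone body metabolism moved in both directions: of 8 tested genes 3 fell and 1 rose at 24 h, and 2 fell and 1 rose at 48 h. The shares that fell, 37.5% and 25%, lay near the 30.5% and 26.4% of all tested genes. OXCT1, which uses ketone bodies, had log2 differences of 0.28 (SE 0.09, adjusted p = 0.018) at 24 h, lost without A (0.11) or B (0.053) of KI696 or A (0.053) or B (0.11) of DMSO at 24 h, and 0.00 (SE 0.09, adjusted p = 0.97) at 48 h.

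Peroxisomal oxidation shortens very long-chain and branched fatty acids. Of 21 tested genes, 13 fell at 24 h and 15 fell and 1 rose at 48 h, with medians of -0.44 and -0.55. The shares that fell were 61.9% and 71.4%, beside 30.5% and 26.4% of all tested genes. CRAT, carnitine acetyltransferase, fell with KI696 by 1.14 (SE 0.12, adjusted p = 6e-06) at 24 h and by 1.24 (SE 0.12, adjusted p = 2e-06) at 48 h. SCP2, a thiolase and lipid carrier, fell by 0.51 (SE 0.08, adjusted p = 0.00016) and by 0.55 (SE 0.08, adjusted p = 6.5e-05). Without library B of KI696 or library A of DMSO at 24 h, 7 fell at 24 h.

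Of 24 tested genes of mitochondrial oxidation 10 fell and 2 rose at 24 h, and 11 fell and 4 rose at 48 h, with medians of -0.26 and -0.25. The shares that fell were 41.7% and 45.8%, beside 30.5% and 26.4% of all tested genes. DECR1, the dienoyl-CoA reductase that acts beside ECH1 on unsaturated fatty acids, had 36.4 and 34.2 CPM with KI696 against 71.7 and 70.9 CPM with DMSO at 24 h, and 51.2 and 42.1 CPM with KI696 against 118 and 127 CPM with DMSO at 48 h. It fell by 1.01 (SE 0.09, adjusted p = 2.9e-06) and by 1.39 (SE 0.09, adjusted p = 1.6e-07). ACADS, the short-chain dehydrogenase, fell by 1.43 (SE 0.19, adjusted p = 6e-05) and by 0.88 (SE 0.19, adjusted p = 0.002), and HADHB, a subunit of the trifunctional protein, by 0.34 (SE 0.05, adjusted p = 0.00024) and by 0.46 (SE 0.05, adjusted p = 1.6e-05).

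Uptake and activation, droplet, gluconeogenic and pyruvate dehydrogenase genes completed the pathway. Their counts are to be read beside all tested genes, of which 30.5% fell and 18.1% rose at 24 h. At 48 h 26.4% of all tested genes fell and 22.4% rose. Of 15 tested genes of fatty acid binding, uptake and activation 8 fell at 24 h and 7 fell and 1 rose at 48 h. ACSL4, an acyl-CoA synthetase for polyunsaturated fatty acids, fell with KI696 by 0.70 (SE 0.07, adjusted p = 6.6e-06) and by 0.89 (SE 0.07, adjusted p = 6.9e-07), and the transporter SLC27A1 by 1.32 (SE 0.18, adjusted p = 5.9e-05) and by 0.84 (SE 0.18, adjusted p = 0.0017). ACSL1, another synthetase, fell by 1.02 (SE 0.30, adjusted p = 0.012) at 24 h, a call lost without A (0.074) or B (0.077) of KI696 or B of DMSO (0.074) at 24 h, and had 0.32 (SE 0.30, adjusted p = 0.39) at 48 h. CD36, the scavenger receptor for fatty acids, stayed at or under 4.39 CPM and had log2 differences of -1.33 (SE 0.56, adjusted p = 0.067) and -1.54 (SE 0.56, adjusted p = 0.036), the second lost in 7 alternatives, with adjusted p = 0.051 without A of DMSO at 24 h, 0.25 without B of KI696 at 48 h and 0.24 without A of DMSO at 48 h. Of 13 droplet and lipolysis genes 5 fell at 24 h and 6 fell and 2 rose at 48 h, and LIPE, the hormone-sensitive lipase, fell by 0.68 (SE 0.12, adjusted p = 0.00034) at 48 h. Of 13 pyruvate dehydrogenase genes 5 fell and 2 rose at 24 h, and 4 fell and 4 rose at 48 h. MPC2, a subunit of the mitochondrial pyruvate carrier, fell by 0.66 (SE 0.07, adjusted p = 9.7e-06) and by 0.65 (SE 0.07, adjusted p = 7.2e-06). Of 9 genes of gluconeogenesis and glyceroneogenesis 3 fell at 24 h, and 2 fell and 2 rose at 48 h, and of the 5 tested angiopoietin-like and lipase genes 3 fell at each time. The gluconeogenic shares that fell, 33.3% at 24 h and 22.2% at 48 h, lay near those of all tested genes. Those of the pyruvate dehydrogenase genes were 38.5% and 30.8%. Without B of DMSO at 24 h 5 binding genes fell at 24 h, and without B of KI696 at 48 h 4 fell at 48 h. Without B of KI696 or A of DMSO at 24 h 3 droplet genes fell at 24 h. Without A of KI696 or A of DMSO at 24 h 1 gluconeogenic gene fell at 24 h, as did 1 at 48 h without B of KI696 or A of DMSO at 48 h.

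**Figure D5:**
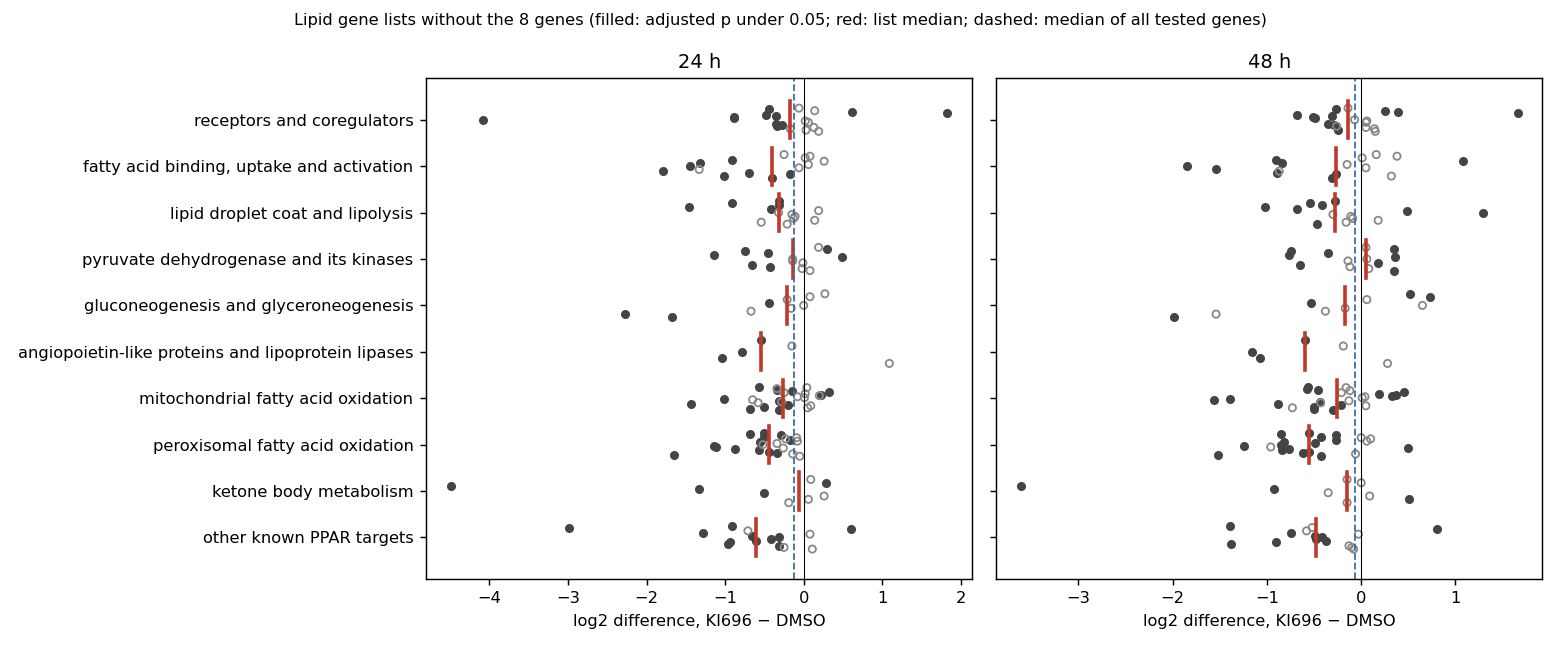
Log2 difference between KI696 and DMSO at 24 h and at 48 h for each tested gene of 10 lists without the 8 genes (filled points, adjusted p under 0.05), with each list's median (red) and the median of all tested genes (dashed, -0.12 and -0.07). The medians of peroxisomal oxidation, at -0.44 and -0.55, and of other PPAR targets, at -0.61 and -0.48, lie left of the dashed line at both times.

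Counted once each, the 140 tested genes of the 10 lists had 67 that fell (47.9%) and 8 that rose at 24 h, and 65 that fell (46.4%) and 19 that rose at 48 h, where 30.5% and 26.4% of all tested genes fell. The median log2 difference was -0.31 at 24 h and -0.27 at 48 h. The number that rose at 24 h depended on the scaling, with 18 under TMM factors, 18 under median-ratio size factors and 15 under quantile normalization. Between 48 h and 24 h, 33 rose and 2 fell within KI696, where 8.38% of all tested genes rose and 3.61% fell. Within DMSO 25 rose and 2 fell, where 5.29% rose and 4.35% fell. Within KI696 13 rose without A and 4 without B of KI696 at 24 h, and 20 without A of KI696 at 48 h. Within DMSO 7 rose without A and 15 without B of DMSO at 24 h, and 15 without B of DMSO at 48 h. None of the 140 passed the limma test of the difference between the effects (22 at an unadjusted p under 0.05). With limma voom 0 passed, and 18 at an unadjusted p. At 48 h, 6 passed without A of DMSO, 5 without B of KI696, 2 without A of KI696 and 1 without B of DMSO, and 1 passed with TMM scaling, median-ratio scaling or 5 CPM added.

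Genes other than the 8 that followed FABP4 most closely over the 8 libraries, by Pearson correlation of log2 levels among 10663 genes with a mean of at least 5 CPM, were CYSTM1 (r = 0.999), TFPI (0.996), ACOT9, CHP1 and GNG2 (0.994 each). To the mean of the 8 genes after z-scoring, CLIP2 (0.998), AES (0.996), TFPI (0.996), CEACAM1 (0.995) and TRIL (0.995) were nearest. TFPI, an inhibitor of blood coagulation, had 95 and 100 CPM with KI696 against 174 and 174 CPM with DMSO at 24 h, and 152 and 138 CPM with KI696 against 250 and 256 CPM with DMSO at 48 h. CEACAM1, a cell adhesion molecule, had 1.22 and 0.998 CPM with KI696 against 10.8 and 10.5 CPM with DMSO at 24 h, and 3.93 and 3.29 CPM with KI696 against 34.7 and 36 CPM with DMSO at 48 h. The libraries share treatment and time within groups, so these values describe likeness of pattern and carry no test. The mean z-score of the 8 genes was -1.20 and -1.27 with KI696 and 0.29 and 0.36 with DMSO at 24 h, and -0.20 and -0.36 with KI696 and 1.09 and 1.29 with DMSO at 48 h.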

How the data were processed

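Poly(A) RNA of Calu-6 cells was sequenced to single-end 75-base reads, per the labels' protocols. The submitters' processing notes name hg38, R 4.0.3 and edgeR; aligner, counting tool, strand setting and filter are not stated in the sources at hand. The deposited table holds log2 values, read from the values as log2 CPM with a small prior count by the authors: all columns share a floor of -2.05, and the antilog steps in whole reads (largest distance 2.4e-09). Reads were recovered from these steps, and printed CPM levels are these reads per 1000000 of effective library size. In CPM, 3 reads are 0.213 to 0.428, a detection floor for counting error only. Of 14556 genes, 21 had symbols turned into dates and were left out. Chi-square per degree of freedom between the libraries of a group was 1.65 (KI696 24 h), 1.69 (DMSO 24 h), 3.64 (KI696 48 h) and 4.82 (DMSO 48 h), so none agreed within sampling noise.

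The 13213 genes that reached 1 CPM in 2 or more libraries entered limma 3.58.1 (R 4.3.3). The fit used the log2 values as deposited, 1 mean for each group, all 8 libraries and a variance trend. Tests were two-sided, and p-values were adjusted over these genes by Benjamini-Hochberg, with calls at 0.05. Residual degrees of freedom were 4, and 13.1 with the prior. Differences on this scale understate changes of low genes. The plan assumed a count test as an alternative; the unit log2 did not allow it, and limma voom on recovered reads was added after seeing the data. The scripts were tested on simulated data. Gene positions are from GENCODE 29. Named genes are the 8 genes, their relatives, receptors, coactivators and known targets listed in the plan, NQO1 and KEAP1, and up to 4 per list with the smallest p at 24 h, of which examples are given and some are not reported here, and the 5 genes most like FABP4 and most like the mean of the 8. Genes named outside this rule for marker checks were chosen after their values were seen. The members, lists and tests were chosen with earlier results of these data known.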

Additional observations from a re-analysis of the deposited data

Results flagged for a closer look

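The effect of KI696 on PDK4 at 48 h minus that at 24 h was 0.83 on the log2 scale (SE 0.17, adjusted p = 0.046, limma), a call that was lost in 14 of 18 alternatives. Among these were TMM scaling (adjusted p = 0.06), limma voom (0.061), no variance trend (0.19), and the fits without A (0.15) or B (0.2) of KI696 at 24 h, A (0.19) or B (0.16) of DMSO at 24 h, A of KI696 at 48 h (0.058) or B of DMSO at 48 h (0.089). The value stayed between 0.54 and 0.92 in all 18. PDK4 was chosen by the KI696 effects of which this value is the difference, so its p-value is not free of that choice. The effect on NQO1 differed by 1.04 (SE 0.15, adjusted p = 0.0097), with 1939 and 2273 CPM with KI696 against 320 and 244 CPM with DMSO at 48 h, and 1824 and 1852 CPM with KI696 against 521 and 486 CPM with DMSO at 24 h. Within DMSO, NQO1 fell by 0.85 (SE 0.10, adjusted p = 0.00031) between the times, a call lost with no variance trend (adjusted p = 0.063). The call of the difference between the NQO1 effects was lost with no gene filter (adjusted p = 0.054) and with no variance trend (0.25). It was also lost without A or B of KI696 or A or B of DMSO at 24 h.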

How the results depend on the processing

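The 8 genes lay below DMSO at both times under every alternative run: other scalings (TMM, median-ratio, quantile), 0.25, 1 or 5 CPM added, a filter at 5 CPM or none, no variance trend, the compared groups alone, each library left out, and limma voom, the last added after seeing the data. The genes were chosen as lower with KI696 in these libraries, so this sign is a description and no test. The quasi-likelihood count test that was planned was not run because the table holds log2 values. No paired analysis was possible because the columns carry no replicate number. Where a group kept 1 library, it was assumed to vary like the others. Counts over all genes moved most. Genes that passed the difference between effects numbered 112, and 190 with 5 CPM added, 5 with no filter, 0 with no variance trend (1681 at an unadjusted p under 0.05) and 1 to 530 when a library was left out. With time, 1584 passed within KI696 (152 with no trend, 258 to 1945 without a library) and 1274 within DMSO (153 and 316 to 1646). Of the 7 genes other than FABP4, 1 passed the difference between effects, and 0 did with 1 or 5 CPM added, no filter, TMM, median-ratio or quantile scaling, no trend or limma voom (1 to 4 at an unadjusted p), and 0 to 2 without a library. Within DMSO 4 rose with time, and 1 with no trend. Of the lipid lists, 8 genes rose at 24 h, and 18, 18 and 15 under TMM, median-ratio and quantile scaling. With time 33 rose within KI696 (3 with no trend, 4 to 37 without a library) and 25 within DMSO (4 and 7 to 29). The marker NAPSA had a KI696 difference of 0.48 at 48 h (-1.97 to 2.93 when a library was left out, the lowest without KI696 A), and SFTA3 of -0.12 (-1.90 to 1.67, the highest without KI696 B). The cause of these shifts was not tested. Library B of the 48 h groups is the deeper of each pair. PCK1 and ANGPTL4 rest on fewest reads.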
